A study of Mus musculus with 6 samples.

Results

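The cytosolic ribosome of the mouse pituitary was followed through 55 genes for its core proteins, 31 of the large subunit and 24 of the small subunit. They were found on the array as probes, other than control spots, that the spot files assign to a RefSeq transcript of one of these genes. By that rule 54 of the 55 genes had a probe and Rpl37 had none. The 54 genes carried 116 of the 55681 probes on the array, 69 for the large and 47 for the small subunit. All 116 were bright enough to be tested, against 36739 probes of the whole array. The question put to them was how far each probe, and each subunit as a set, differed between pituitaries that lack the histone demethylase Jmjd2a and those that have it.

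A cytosolic ribosome is built in the nucleolus from ribosomal RNA and a fixed set of proteins, each present once in a particle apart from the stalk proteins. The small subunit decodes the mRNA, and the large subunit joins amino acids and feeds the new chain through the exit tunnel. The mRNAs of most of these proteins begin with a run of pyrimidines after a C, the TOP motif, through which mTORC1 and the binding protein Larp1 control their translation together. In the hormone-producing cells of the pituitary, as in other secretory cells, these mRNAs are among the most abundant.

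RNA came from whole pituitaries of virgin female mice on a C57BL6 background, 8 weeks old. All females had been brought into oestrus by soiled bedding of a stud male (the Whitten effect) and were killed 24 h later. The 3 mice of the KO group were Jmjd2a-/- and the 3 of the WT group were their Jmjd2a+/+ littermates, with 1 array for each mouse. Jmjd2a is now named Kdm4a, and the sources used here do not say how the null allele was made. All 6 arrays were on 1 slide and in 1 scan. WT replicates 1 and 3 and KO replicates 1 and 3 lay in slide row 1, and WT replicate 2 and KO replicate 2 in slide row 2. Between 34634 and 40567 probes per array were well above background, and WT replicate 2 had both the most such probes and the most spots marked as outliers (4930, against 3000 on KO replicate 2 and 188 to 285 on the other arrays). Outlier spots were left out, so 10 of the 116 ribosomal protein probes lack a value on an array, 6 of them on WT replicate 2 and 5 on KO replicate 2. All 8 anterior pituitary marker genes, hormone subunits and the factor Pou1f1, were well above background on all arrays. The precision of all values is limited by the 3 arrays per group, and p-values measure the spread between these animals.

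Levels are given as log2 of the spot signal relative to the 75th percentile of the same array, so a level of 0 is the brightness of that percentile. They rank samples for a probe and do not rank one gene against another, since probes differ in how well they bind. Kdm4a itself read 2.25, 2.0 and 1.99 on the WT arrays and 1.59, 1.34 and 1.51 on the KO arrays with its brighter probe (A_52_P281209). Each KO array was below each WT array, with a log2 fold change of -0.60 ± 0.14 (SE), or 66.0% of the WT signal. Its adjusted p was 0.282 (limma, Benjamini-Hochberg over all probes tested), and an exact permutation test (two-sided) returned 0.1, the smallest p that 3 against 3 arrays allow. The other probe of Kdm4a (A_55_P1982585) was well above background on 2 arrays only and was not tested. Whether either probe lies within the deleted part is not known here.

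The starts of the genes were read from the RefSeq promoter table of build GRCm38.p6, which holds windows from 250 bases before to 50 bases after an annotated start. It gave 51 windows for 44 of the 55 genes, and none for Rpl3, Rpl7, Rpl8, Rpl17, Rpl30, Rpl32, Rpl36, Rplp1, Rps14, Rps20 and Rps29. The TOP form searched was a C at the annotated start followed by at least 4 further C or T on the gene's strand. It stood in 11 of the 51 windows (21.6%), 1 for each of 11 genes, and in 2.51% of all 32851 windows in the table. The 8 below are shown because their genes span the range of differences described further on. They run from Rps10, Rps18 and Rpl14 at the low end to Rps6 and Rps27, each with a probe among those nearest to 0. Each line gives 30 bases before the annotated start and 20 from it on, 5′ to 3′, with the pyrimidine run that opens the transcript in capitals.
Rps10 (chr17:27635225-27635274, minus strand): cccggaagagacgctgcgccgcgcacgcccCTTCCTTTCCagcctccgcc
Rps18 (chr17:33955646-33955695, minus strand): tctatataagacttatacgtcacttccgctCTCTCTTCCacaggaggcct
Rpl14 (chr9:120571487-120571536, plus strand): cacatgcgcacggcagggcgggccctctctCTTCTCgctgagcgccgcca
Rps15a (chr7:118116128-118116177, minus strand): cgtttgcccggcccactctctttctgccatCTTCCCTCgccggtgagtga
Rpl15 (chr14:18270967-18271016, minus strand): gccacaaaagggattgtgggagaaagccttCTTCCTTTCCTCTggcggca
Rpl28 (chr7:4792935-4792984, plus strand): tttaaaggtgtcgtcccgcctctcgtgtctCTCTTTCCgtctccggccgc
Rps6 (chr4:86857348-86857397, minus strand): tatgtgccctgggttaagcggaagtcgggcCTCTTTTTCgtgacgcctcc
Rps27 (chr3:90213629-90213678, minus strand): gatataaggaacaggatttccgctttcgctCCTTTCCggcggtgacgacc
For contrast, the windows of Rps3 and Rpsa, each with a probe among the lowest and another nearer to 0, hold no such run at the annotated start. An annotated start can lie some bases from the one in use, so a missing run says only that these letters are not at that position.
Rps3 (chr7:99483690-99483739, minus strand): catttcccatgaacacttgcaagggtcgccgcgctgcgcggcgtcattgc
Rpsa (chr9:120127736-120127785, plus strand): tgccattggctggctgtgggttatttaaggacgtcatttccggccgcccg

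Other promoter motifs were counted in the same windows, on both strands, and no motif in this count contains another. The ETS-type core CCGGAAG stood in 17 of the 51 windows (33.3%) against 8.86% of all windows. The GC box GGGCGG stood in 28 windows (54.9%, against 35.7%), the YY1-type motif ATGGCGG in 6 (11.8%, against 4.05%) and the E-box CACGTG in 6 (11.8%, against 7.15%). The TATA box TATAAA stood in 4 windows (7.84%, against 13.6%). The 22 probes of the 11 genes with a pyrimidine run at the annotated start had a median log2 fold change, KO over WT, of -0.26, and the 67 probes of the genes with other windows one of -0.28. The medians of both sets were thus close to each other. The 27 probes of genes without a window had a median of -0.23. Since an annotated start can lie some bases from the one in use, these sets cannot tell genes with a TOP motif from genes without one.

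No ribosomal protein probe passed the test between KO and WT. Of the 116 probes 0 were called at an adjusted p under 0.05, as were 0 of all 36739 probes (0%), and the smallest adjusted p among them was 0.332. At an unadjusted p under 0.05 there were 19 probes, all lower in KO (16.4%), where 7.72% of all probes were lower at that p and 4.59% higher. These 19 probes belong to 15 genes, with 10 probes of the large subunit (14.5%) and 9 of the small subunit (19.1%). Among them, probes of Rpl12 (A_55_P1954907), Rplp0 (A_66_P105288), Rpl13 (A_55_P2011235) and Rps10 (A_55_P2051047) lack a value on an array of slide row 2 or on both. Of the 106 ribosomal protein probes with a value on all arrays, 23 (21.7%) had each KO array below each WT array, against 11.3% of all such probes, and 0 had the opposite, against 8.47%. With this scaling 114 of the 116 probes had a log2 fold change below 0, where 57.9% of all probes did. That count depended on the scaling: it was 99 of 116 with median centring, 72 with cyclic loess, 66 with quantile normalization and 75 of 115 in the authors' value table, and 29 of 116 in slide row 2 alone. As scaled here, all probes were below 0 in 52 of the 54 genes, the exceptions being Rpl22 and Rpl23.

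The sizes were small and alike within a gene. The median log2 fold change was -0.22 for the large and -0.33 for the small subunit, against -0.06 for all probes tested. The range ran from -0.57 to 0.28 in the large subunit and from -0.64 to -0.04 in the small subunit. In the 35 genes with several probes, the median distance between the highest and lowest fold change of a gene's probes was 0.08. The small subunit stood lower than the large one by 0.11 (large minus small 0.11), and this gap had the same sign in each alternative way of processing, at 0.05 to 0.14. Since the genes were proposed with earlier results of these data known, no test is attached to these medians.

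**Figure D1:**
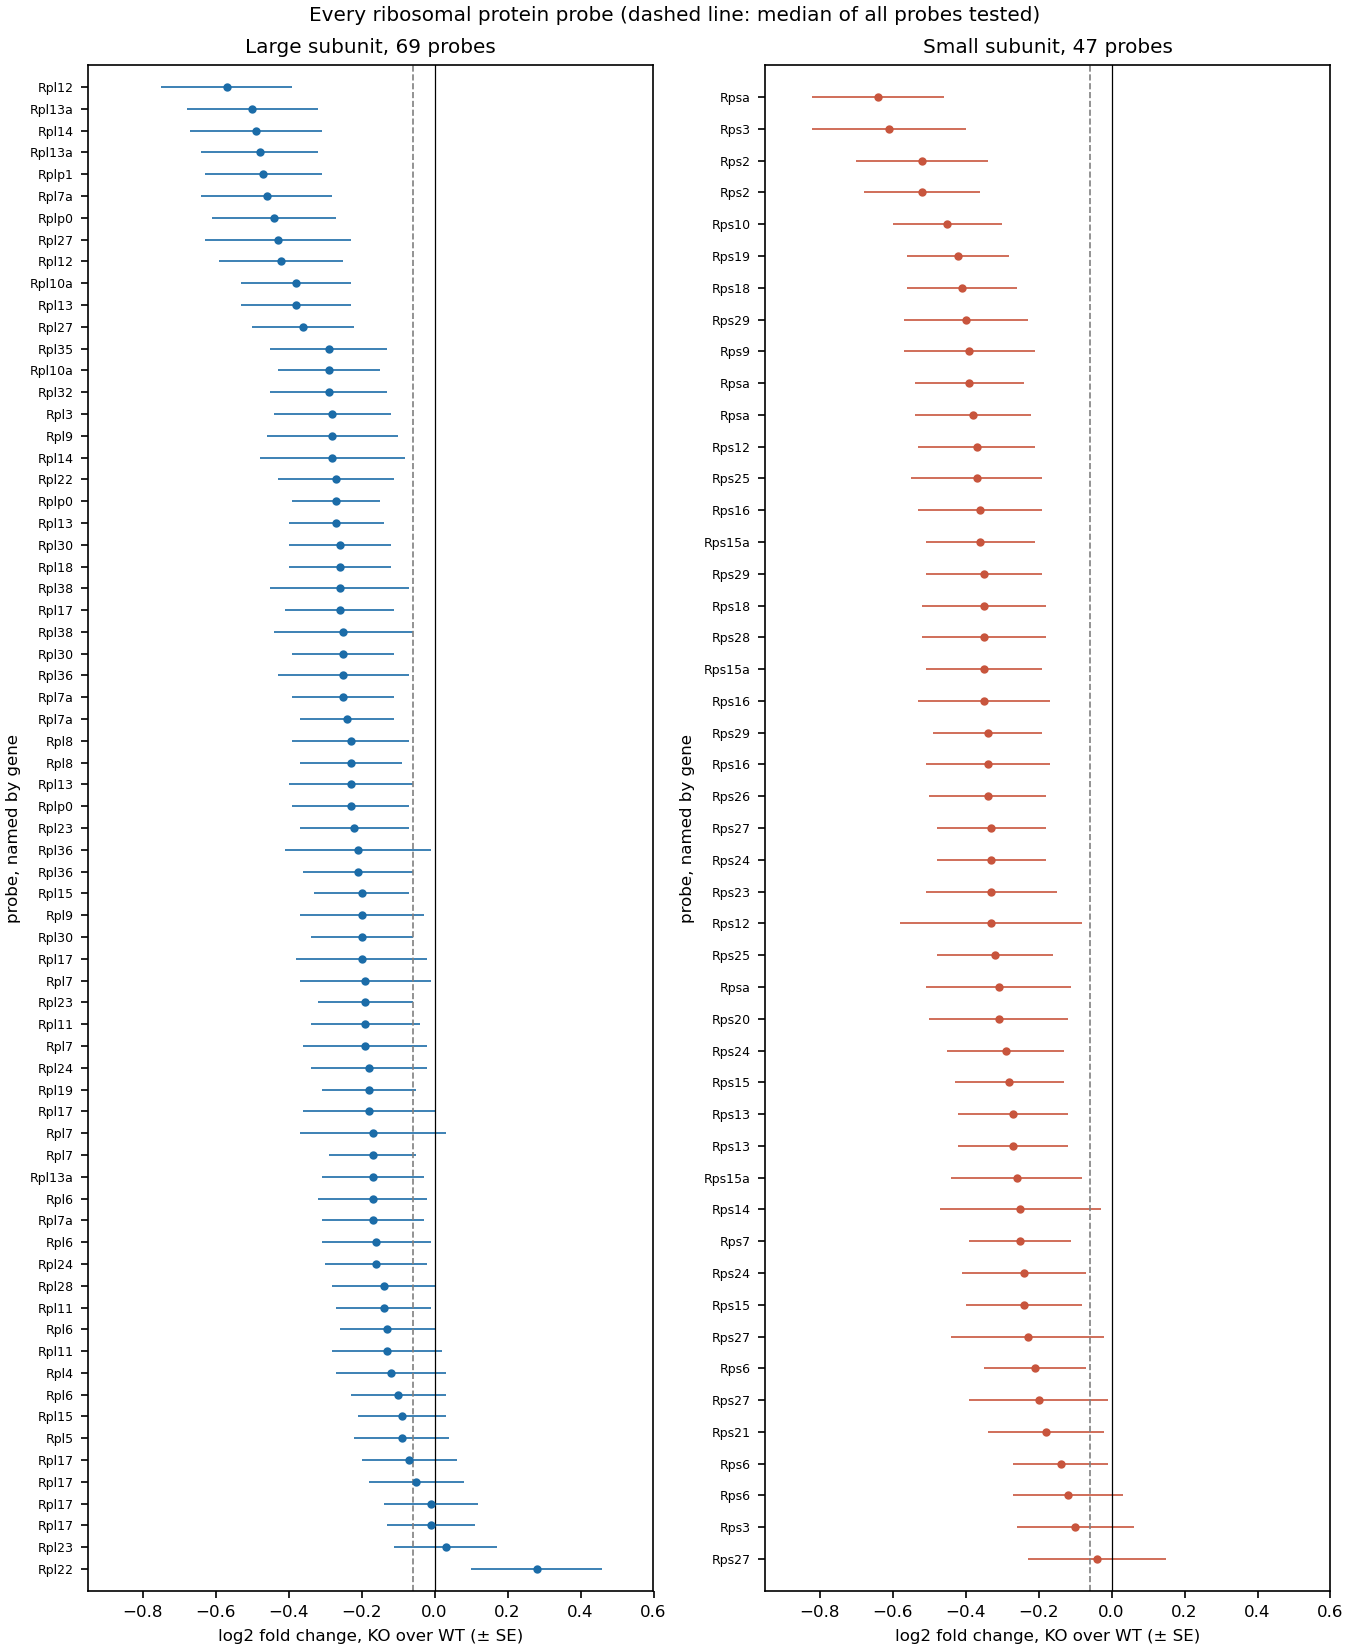
Log2 fold change of each ribosomal protein probe, KO over WT, with its standard error, for the large subunit (left, 69 probes) and the small subunit (right, 47 probes), sorted by size and named by gene. The solid line is 0 and the dashed line the median of all probes tested (-0.06), and 114 of the 116 points lie left of the solid line.

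The difference was not carried evenly by the arrays. Taken as deviations from each probe's own mean, and relative to the median of all probes on the array, the large subunit probes had medians of 0.14, -0.10 and 0.20 on WT replicates 1 to 3 and -0.16, 0.02 and -0.11 on KO replicates 1 to 3. The small subunit probes had medians of 0.24, -0.10 and 0.29 on the WT arrays and -0.24, 0.00 and -0.19 on the KO arrays. WT replicates 1 and 3 were high and KO replicates 1 and 3 low, and the pair in slide row 2 lay in between with WT replicate 2 below KO replicate 2. The pooled SD between replicates was 0.13 for the large and 0.18 for the small subunit. With slide row as a block in the fit, 14 probes were at an unadjusted p under 0.05 and the medians relative to all probes were -0.17 (large) and -0.28 (small). Within slide row 1 alone the medians relative to all probes were -0.33 (large) and -0.47 (small), with 56 probes at that p. Within slide row 2 alone, 1 array per group, they were 0.14 and 0.08, the opposite direction. Leaving out WT replicate 2 raised the count from 19 to 64, and leaving out KO replicate 1, WT replicate 3 or KO replicate 3 lowered it to 1, 3 and 4. The share of all probes at that p in each of these settings is not given here, so the counts lack a background. Other lists moved as well: of 81 ribosome biogenesis probes, 0 were lower at that p as scaled here and 5 without WT replicate 2.

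The gap between the subunits varied less between arrays than either subunit did. Within an array, the large subunit median minus the small subunit median was -0.10, 0.00 and -0.09 on the WT arrays and 0.08, 0.03 and 0.08 on the KO arrays. Each KO array was above each WT array, and the pooled SD between replicates was 0.04.

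**Figure D2:**
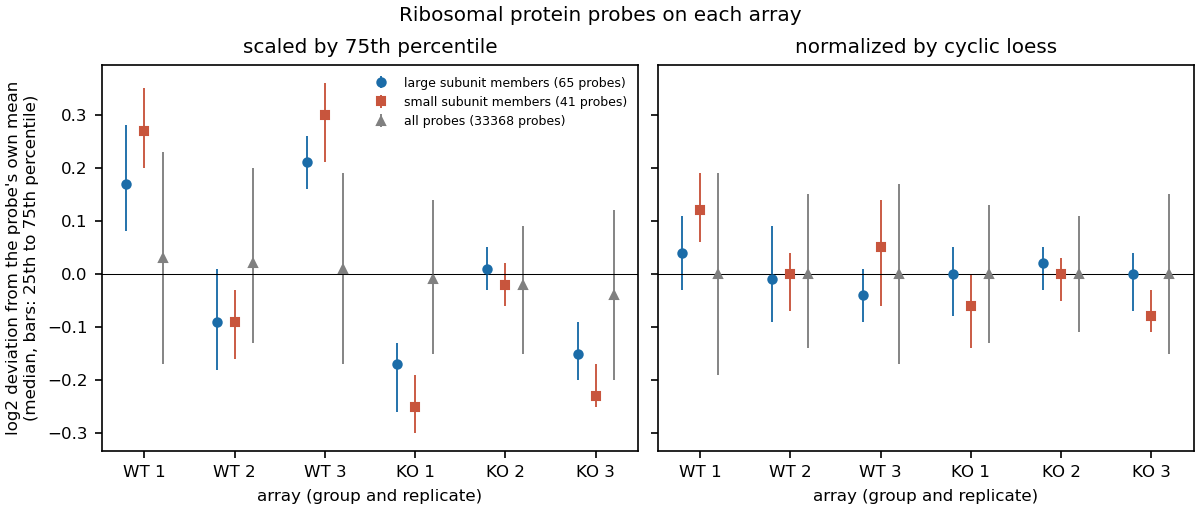
Median deviation of ribosomal protein probes from their own mean (log2) on each array, for probes with a value on all arrays; bars run from the 25th to the 75th percentile of the probes. With 75th percentile scaling (left) the medians of both subunits are highest on WT replicates 1 and 3 and lowest on KO replicates 1 and 3, and after cyclic loess (right), which removes trends with brightness, the large subunit medians lie close to 0.

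Brightness moved with the result. Ribosomal protein probes are among the brightest on the array: 106 of the 116 (91.4%) had a mean log2 signal of 12 or more before scaling, against 6.63% of all probes. Other probes of that brightness were lower in KO as well, with a median of -0.17 over 2330 probes, where the 106 ribosomal protein probes had -0.26. At an unadjusted p under 0.05, 8.84% of those other bright probes were lower and 1.46% higher, against 17 and 0 of the 106 bright ribosomal protein probes. In the band of log2 signal from 14 to 15 the median was -0.22 for 391 other probes, -0.21 for 19 large subunit probes and -0.35 for 9 small subunit probes. In the band from 15 to 16 it was -0.25 for 259 other probes, -0.21 for 27 large subunit probes and -0.33 for 17 small subunit probes. Large subunit probes thus lay at the level of other probes of their brightness in these 2 bands, and small subunit probes lay below it. From 12 to 14 the medians were -0.14 (other), -0.19 (large) and -0.29 (small), and from 16 to 18 they were -0.23, -0.26 and -0.34. From 8 to 10, 3 large subunit probes had a median of -0.26 and other probes 0.03. The other probes include those of ribosomal protein genes outside the chosen set. The signal at the 75th percentile, by which arrays were scaled, was higher in KO by 0.23 (log2), while the median ribosomal protein signal before scaling differed by -0.02. In whole tissue, fewer cells of a type and less RNA per cell cannot be told apart.

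**Figure D3:**
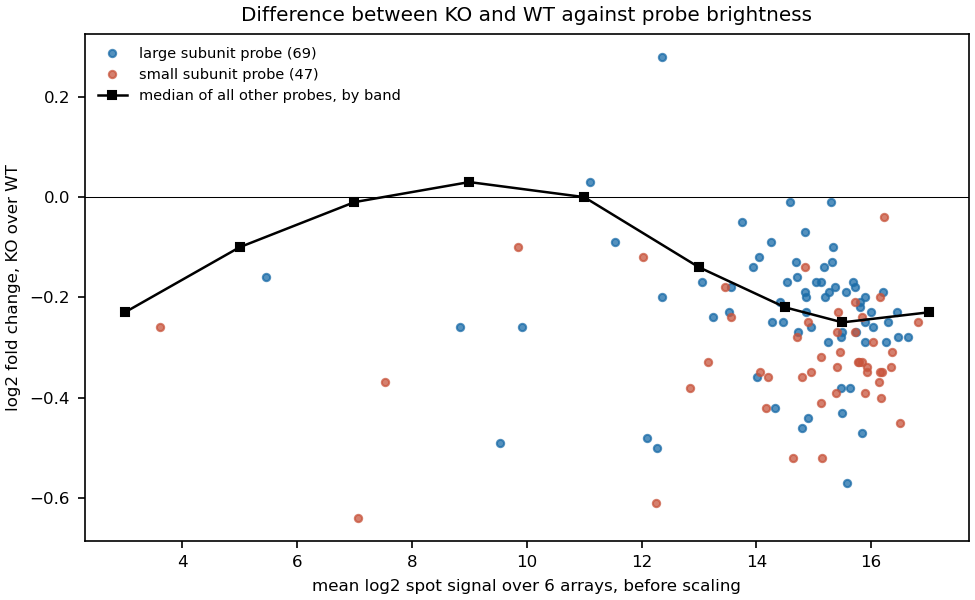
Log2 fold change (KO over WT) of each ribosomal protein probe against its mean log2 spot signal before scaling, with the median of all other probes in bands of signal (black squares, each at the middle of its band). The other probes bend downward above a signal of 12, to -0.22 in the band from 14 to 15, and most small subunit points lie under the black line there.

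Cyclic loess and quantile normalization, which even out brightness, took the large subunit to the level of all probes. The authors' value table, whose normalization is not stated, gave a like value. Relative to the median of all probes, the large subunit median was 0.01 after cyclic loess, -0.01 after quantile normalization and -0.01 in the authors' value table. The small subunit median was -0.07, -0.08 and -0.09 in the same order. Over the scalings, the median of all probes itself moved from -0.06 to 0.10 with median centring. With normexp background correction the subunit medians were -0.06 and -0.17 relative to all probes. No alternative with a test called a ribosomal protein probe at an adjusted p under 0.05.

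**Figure D4:**
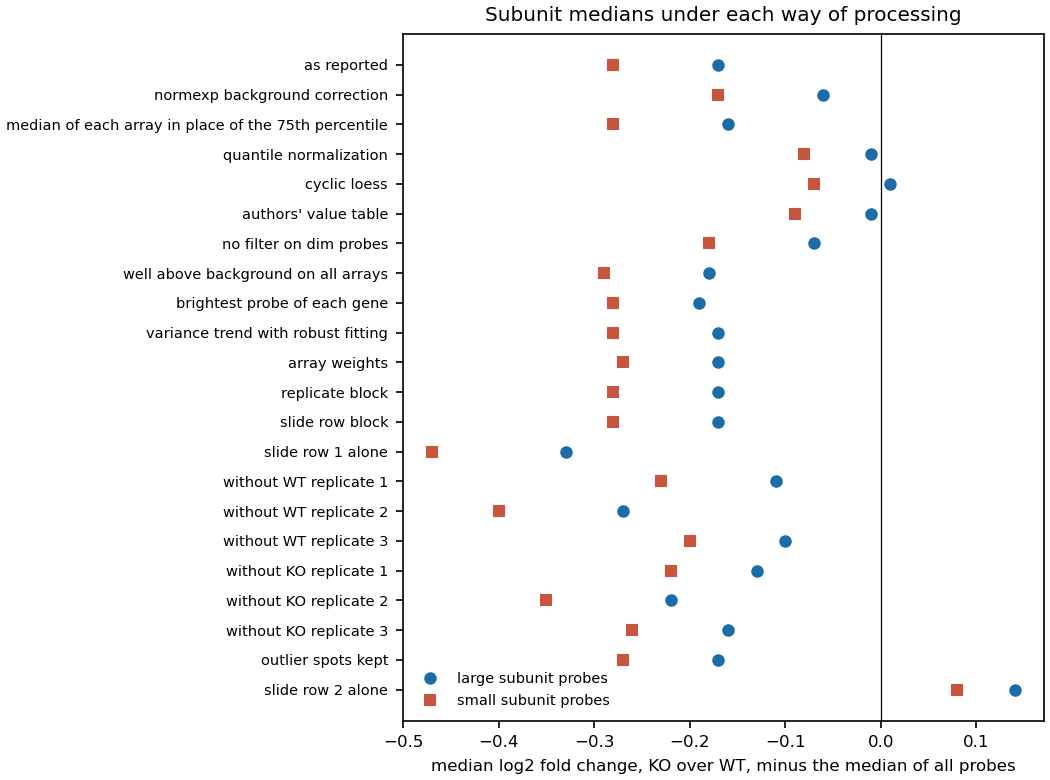
Median log2 fold change (KO over WT) of the large and small subunit probes, minus the median of all probes, as reported and under each of the 21 alternatives. The small subunit lies left of the large subunit in every line, both lie near 0 after quantile normalization and cyclic loess, and slide row 2 alone, 1 array per group, lies right of 0.

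Within the large subunit, the stalk that recruits elongation factors had the lowest median of the 4 groups of probes described here. The 6 probes of Rplp0, Rplp1 and Rpl12, the genes of the chosen set for the stalk and its base, had a median of -0.43. At an unadjusted p under 0.05, 4 of the 6 (66.7%) were lower, where 7.72% of all probes were, and 0 were called after adjustment. The stalk protein Rplp1 read 8.19, 8.13 and 8.59 in WT and 7.74, 7.94 and 7.82 in KO, a log2 fold change of -0.47 ± 0.16 (SE; limma adjusted p = 0.36). All 3 KO arrays were below all WT arrays. Rpl12, which anchors the stalk, read 7.96, 7.87 and 8.28 in WT and 7.44 and 7.49 in KO replicates 1 and 3 (A_55_P1954907), with no value on KO replicate 2. Its fitted log2 fold change of -0.57 ± 0.18 (SE; limma adjusted p = 0.348) was the lowest of the large subunit and rests on 5 arrays. The 3 probes of Rplp0 lay at -0.44, -0.27 and -0.23. The first of these Rplp0 probes (A_66_P105288), one of the 4 at that p, has values in slide row 1 only and was at 0.03 in the authors' value table. After cyclic loess the median of the 6 probes was -0.15 relative to all probes and 0 were at an unadjusted p under 0.05.

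Other groups of large subunit genes in the chosen set lay nearer to the bulk of the array. Rpl5 and Rpl11, which join the smallest ribosomal RNA in a particle that can also bind the p53 regulator Mdm2, had 4 probes with a median of -0.14, at -0.19 to -0.09. The exit tunnel proteins of the chosen set, Rpl4, Rpl17, Rpl19 and Rpl35, had 10 probes with a median of -0.15. In both groups 0 probes were at an unadjusted p under 0.05, and relative to all probes the medians after cyclic loess were 0.09 and 0.05. Rpl39 of the exit tunnel lies outside the chosen set, with probes at -0.37, -0.38 and -0.39. The first of these Rpl39 probes was lower at that p. The stalk protein Rplp2 lies outside the set too, at -0.35 with overlapping groups. Rpl17 carried 7 probes, the most of any of the genes. Its probe A_55_P2011674 read 7.53, 7.45 and 7.63 in WT and 7.40, 7.60 and 7.58 in KO, and the groups overlapped. The log2 fold change there was -0.01 ± 0.13 (SE; limma adjusted p = 0.979), and it turned positive under the scalings listed in the closing section.

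The other 49 large subunit probes, outside these sites, had a median of -0.23. Of them 6 were lower at an unadjusted p under 0.05 (12.2%, against 7.72% of all probes). Rpl13a, which also takes part in silencing inflammatory mRNAs outside the ribosome, had 2 probes of nearly equal values. With the first (A_55_P2052613) it read 4.38, 4.56 and 4.79 in WT and 3.95, 4.23 and 4.11 in KO, a log2 fold change of -0.48 ± 0.16 (SE; limma adjusted p = 0.346). With the second (A_55_P2101910) it read 4.52, 4.72 and 5.02 in WT and 4.08, 4.44 and 4.24 in KO, a log2 fold change of -0.50 ± 0.18 (SE; limma adjusted p = 0.367). With both probes each KO array was below each WT array. The third probe of Rpl13a (A_55_P2058953) read 7.54, 7.27 and 7.55 in WT and 7.19, 7.40 and 7.25 in KO, at -0.17 ± 0.14 (SE), and its groups overlapped.

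Rpl14 and Rpl27 complete the 6 large subunit probes with the smallest p. With its dimmer probe (A_51_P232858) Rpl14 read 1.71, 2.08 and 2.28 in WT and 1.42, 1.64 and 1.55 in KO, with no overlap and a log2 fold change of -0.49 ± 0.18 (SE; limma adjusted p = 0.373). With probe A_55_P2048684 Rpl27 read 6.38, 6.30 and 6.60 in WT and 5.96, 6.15 and 6.09 in KO, with no overlap and a log2 fold change of -0.36 ± 0.14 (SE; limma adjusted p = 0.38). The brighter probes of both genes had overlapping groups, at -0.28 ± 0.20 (SE) for Rpl14 and -0.43 ± 0.20 (SE) for Rpl27. That of Rpl27 was at 0.14 in slide row 2 alone and that of Rpl14 at 0.25. The dimmer Rpl14 probe had a mean log2 signal of 9.54. Among 6508 other probes with a signal between 8 and 10 the median was 0.03, and the fold change of Rpl14 relative to the median of all probes was -0.43.

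At the other end, Rpl22 and Rpl23 each had a probe above 0. Rpl22, an RNA-binding protein of the large subunit surface, read 4.80, 4.26 and 4.28 in WT and 4.61, 4.70 and 4.88 in KO with probe A_52_P391718. WT replicate 1 lay among the KO values, and the log2 fold change was 0.28 ± 0.18 (SE; limma adjusted p = 0.54), the highest of the 116. Rpl23, another protein that can bind Mdm2, read 3.15, 3.43 and 3.38 in WT and 3.25, 3.42 and 3.38 in KO with probe A_51_P108190. This difference, 0.03 ± 0.14 (SE; limma adjusted p = 0.939), was smaller than the spread between WT arrays (SD 0.15). The Rpl23 probe was printed in 10 spots, whose SD within an array was 0.063 to 0.094, below the SD between WT animals and about that between KO animals (0.09).

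In the small subunit the head, which moves along the mRNA during translocation, and the body with its platform gave similar medians. The head had 20 probes of 11 genes with a median of -0.35, of which 4 were lower at an unadjusted p under 0.05. The body and platform had 27 probes of 13 genes with a median of -0.29, of which 5 (18.5%) were lower at that p. Of all probes 7.72% were lower at that p. All 47 probes were below 0, and 46 of them were also below the median of all probes. After cyclic loess the medians relative to all probes were -0.09 and -0.04. Then 1 and 3 probes were lower at that p, and the share of all probes in that setting is not given here.

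Of the head proteins, Rps3, Rps19 and Rps10 had probes among the 6 with the smallest p. Rps3, which lines the mRNA entry channel, read 5.04, 4.46 and 4.90 in WT and 4.0, 4.47 and 4.09 in KO with probe A_51_P318640. KO replicate 2 equalled WT replicate 2 within 0.02, while the other KO arrays were well below, and the log2 fold change was -0.61 ± 0.21 (SE; limma adjusted p = 0.356). Rps19, the gene most often mutated in Diamond-Blackfan anaemia, read 6.66, 6.44 and 6.71 in WT and 6.03, 6.25 and 6.25 in KO. It had no overlap between groups and a log2 fold change of -0.42 ± 0.14 (SE; limma adjusted p = 0.353). Rps10 read 9.10 and 9.08 in WT replicates 1 and 3, with no value on WT replicate 2, and 8.57, 8.76 and 8.57 in KO. Its log2 fold change of -0.45 ± 0.15 (SE; limma adjusted p = 0.356) rests on 5 arrays, and in the authors' value table, which has a value for it on all arrays, it was -0.01.

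Of the body and platform, Rpsa and Rps2 were lowest. Rpsa, the laminin receptor homologue near the mRNA exit site, read -0.62, -0.49 and -0.04 in WT and -1.16, -0.87 and -1.04 in KO with its dim probe A_52_P372165. The groups did not overlap, and the log2 fold change of -0.64 ± 0.18 (SE; limma adjusted p = 0.332) was the lowest of all 116 probes. The brightest Rpsa probe named here (A_55_P1970700) read 8.08, 7.47 and 7.99 in WT and 7.48, 7.73 and 7.38 in KO, at -0.31 ± 0.20 (SE), and its groups overlapped. Rps2, at the mRNA entry site, gave like values with both of its probes. The first (A_55_P2048454) read 7.08, 6.92 and 7.37 in WT and 6.44, 6.74 and 6.63 in KO, a log2 fold change of -0.52 ± 0.16 (SE; limma adjusted p = 0.339). The second (A_55_P2070347) read 7.70, 7.31 and 7.94 in WT and 7.03, 7.24 and 7.11 in KO, also -0.52, ± 0.18 (SE; limma adjusted p = 0.368). With both probes each KO array was below each WT array.

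The small subunit probes nearest to 0 belonged to Rps27, Rps3 and Rps6. Rps27, a zinc finger protein of the platform, read 8.15 and 8.63 in WT replicates 2 and 3, with no value on WT replicate 1, and 8.27, 8.48 and 8.29 in KO with probe A_55_P2155438, at -0.04 ± 0.19 (SE). Rps6, the substrate of the S6 kinases, read 4.38 and 4.45 in WT replicates 1 and 3, with no value on WT replicate 2, and 4.19, 4.45 and 4.25 in KO with probe A_55_P2008567, at -0.12 ± 0.15 (SE). With these probes of Rps27 and Rps6 the KO values lay across the WT values. The other Rps27 probes were at -0.33, -0.23 and -0.20, and the other Rps6 probes at -0.21 and -0.14. A dim probe of Rps15a (A_52_P491433) read -3.73, -4.35 and -3.97 in WT and -4.39, -4.32 and -4.14 in KO, at -0.26 ± 0.18 (SE). It was the single one of the 116 not well above background on all arrays, with 5 of 6.

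Probes of the same gene parted in 5 genes, by more than 0.3 or in sign. The sharpest case was Rpl22, where the difference between 2 probes within an array (A_52_P391718 minus A_55_P2015989) averaged -2.64 ± 0.27 (SD, n = 3) over the WT arrays, and over the KO arrays it averaged -2.09 ± 0.21 (SD, n = 3). The shift of 0.55 left no overlap between groups. The 5 genes were picked from 35 for such a parting, so the shifts are a description with no test. The files assign these probes to different RefSeq transcripts of Rpl22, and scaling cancels within an array up to trends with brightness; under other normalizations the shift was 0.39 to 0.49. The lower Rpl22 probe read 7.19, 6.87 and 7.20 in WT and 6.68, 7.02 and 6.77 in KO.

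In Rps3 the probe A_55_P2038237, which read 2.36, 1.88 and 2.17 in WT and 2.07, 2.07 and 1.97 in KO, shifted against A_51_P318640 by 0.51. These groups did not overlap either, and under other normalizations the shift was 0.40 to 0.50. Both Rps3 probes are assigned to the same transcript. The shifts of Rpl13a (0.33), Rpsa (0.32) and Rpl23 (0.25) came with overlapping groups. Under other normalizations they were 0.35 to 0.52 for Rpl13a and 0.22 to 0.58 for Rpsa. For Rpl23 the shift was 0.23 with normexp but 0.02 with cyclic loess, -0.02 with quantile normalization and 0.02 in the authors' value table. The other Rpl23 probe (A_55_P2029344) read 8.28, 7.88 and 8.26 in WT and 7.90, 7.96 and 7.89 in KO, at -0.22 ± 0.15 (SE). Ribosomal protein genes have many processed copies in the genome, and probe sequences were not used here, so which copies or transcripts a probe also reads was not tested.

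**Figure D5:**
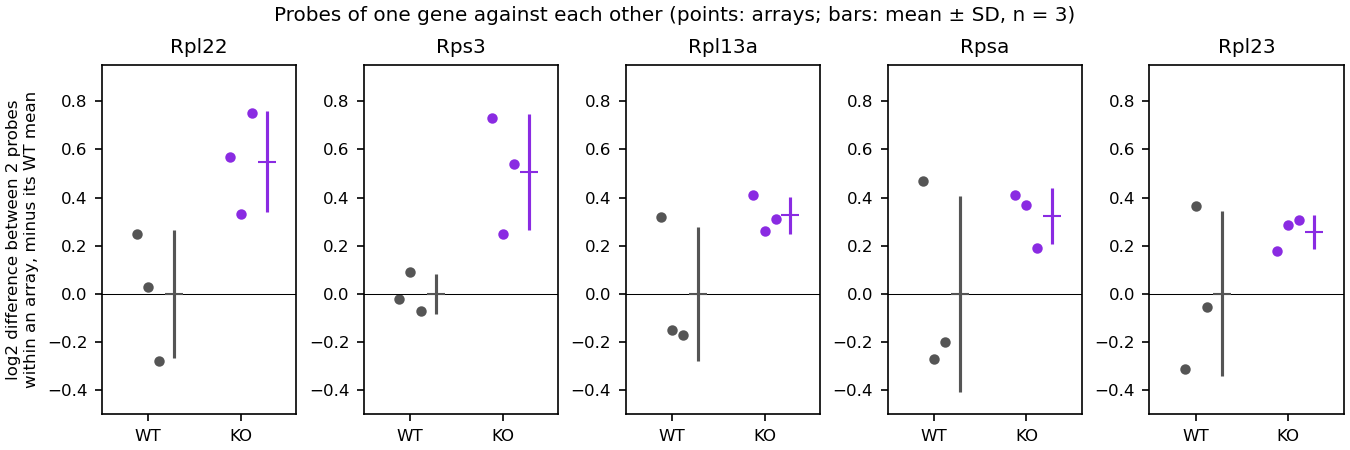
Log2 difference between 2 probes of the same gene within each array, minus its WT mean, for the 5 genes whose probes parted; points are arrays and bars the mean ± SD (n = 3 per group). In Rpl22 (mean shift 0.55) and Rps3 (0.51) each KO array lies above each WT array, and in Rpl13a, Rpsa and Rpl23 the groups overlap.

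The 26 ribosomal protein genes outside the chosen set gave a like median. Their 51 tested probes had a median log2 fold change of -0.26, the same as the -0.26 of the 116, with 50 of 51 below 0 (30 with quantile normalization). At an unadjusted p under 0.05, 4 (7.84%) were lower and 0 higher, near the 7.72% of all probes that were lower. The smallest p belonged to Rps27a, whose mRNA encodes ubiquitin fused to a ribosomal protein, at -1.0 ± 0.32 (SE; limma adjusted p = 0.346) with a dim probe, well above background on 4 arrays, whose groups overlapped. With normexp it was -0.30, and the bright Rps27a probes were at -0.29 and -0.20. A probe of Rpl36a without values in slide row 2 was at -0.56 ± 0.17 (SE) and at -0.20 in the authors' value table, and its other probes were at -0.32 and -0.34. Among genes listed as paralogs of core proteins, Rps4l read 3.26, 3.89 and 4.21 in WT and 0.40, 0.46 and -0.39 in KO. Its log2 fold change was -3.63 ± 0.32 (SE; limma adjusted p = 0.117), and it was called under 5 of the alternatives. The files assign the Rps4l probe to a RefSeq transcript of the non-coding class, so a protein from it cannot be assumed. Rpl22l1, the paralog of Rpl22 and named here after its values were seen, read 6.70, 6.47 and 6.81 in WT and 6.11, 6.41 and 6.19 in KO, at -0.42 ± 0.15 (SE; limma adjusted p = 0.369).

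Genes that build ribosomes had medians close to or above 0. The 81 probes of 62 ribosome biogenesis factors had a median of 0.08, and 0 were called. At an unadjusted p under 0.05, 4 were higher and 0 lower. Of all probes 4.59% were higher at that p, so the count of higher probes is near the background. The share of all probes lower at that p was 7.72%, and this list had 0. The biogenesis median was -0.02 without WT replicate 1, 0.20 without WT replicate 3 and 0.01 in slide row 1 alone. In that order 1, 13 and 3 probes were higher at that p, and 1, 0 and 5 were lower. Brix1, an assembly factor of the large subunit, read -0.51, 0.15 and -0.09 in WT and 0.34, 0.56 and 0.58 in KO, at 0.65 ± 0.19 (SE; limma adjusted p = 0.335). Sbds, which readies new large subunits for translation, was at 0.47 ± 0.17 (SE), and Ddx51, a helicase of ribosomal RNA maturation, at 0.43 ± 0.16 (SE). All 3 had each KO array above each WT array, and their mean log2 signals were 7.94 to 10.49. The fourth, Nolc1, was at 0.73 ± 0.29 (SE) with overlapping groups. Of 75 biogenesis probes with a value on all arrays, 7 had each KO array above each WT array and 2 had the opposite. Over all such probes the shares were 8.47% and 11.3%. RNA polymerase I and its factors had a median of -0.02 over 28 probes. At that p 2 were higher and 0 lower, against 4.59% and 7.72% of all probes. The 2 higher were those of Polr2l and Taf1a. Polr2l, a subunit shared by the nuclear RNA polymerases, was at 0.37 ± 0.12 (SE). Taf1a, of the promoter selectivity factor, was at 0.37 ± 0.16 (SE), and at -0.04 with normexp. The 21 probes for chaperones and importers of ribosomal proteins had a median of -0.04, with 0 at that p in either direction.

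The mRNAs of elongation factors also often carry a TOP motif. The 16 probes listed for them, which include those of Tpt1 and the kinase Eef2k, had a median of -0.21. At an unadjusted p under 0.05, 3 were lower (18.8%, against 7.72% of all probes) and 0 higher, and 0 were called. The 3 were probes of Eef1b2, Tpt1 and Eef2k, and that of Eef2k was dim, at -0.61 ± 0.25 (SE) with overlapping groups. Eef1b2, the exchange factor of the elongation factor that delivers tRNA, read 7.44, 7.38 and 7.68 in WT and 7.09, 7.20 and 7.12 in KO, at -0.36 ± 0.13 (SE; limma adjusted p = 0.375). Tpt1, the translationally controlled tumour protein, was at -0.53 ± 0.18 (SE) with a probe (A_55_P2164221) that has values in slide row 1 only. The same Tpt1 probe was at -0.01 in the authors' value table, and the other Tpt1 probes, with values on all arrays, were at -0.18 and -0.22. Eef1b2 and that Tpt1 probe are as bright as those of ribosomal proteins, with mean log2 signals of 15.1 and 16.6, and after cyclic loess the median of the 16 probes was -0.02. The 51 probes for initiation factors had a median of -0.01, with 0 lower and 3 higher, against 7.72% and 4.59% of all probes. Eif4b, which aids the helicase that unwinds mRNA leaders, read 3.02, 3.28 and 3.02 in WT and 3.48, 3.66 and 3.68 in KO, at 0.50 ± 0.14 (SE; limma adjusted p = 0.32), and Eif1b, which acts in start codon choice, was at 0.30 ± 0.12 (SE).

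The mTORC1 pathway and proteins that control TOP mRNAs had a median of 0.05 over 32 probes, with 3 lower (9.38%) and 1 higher at an unadjusted p under 0.05 and 0 called, near the 7.72% and 4.59% of all probes. Tsc2, an inhibitor of mTORC1, read -2.86, -1.99 and -2.67 in WT and -3.39, -3.40 and -3.68 in KO with a dim probe, at -0.98 ± 0.24 (SE; limma adjusted p = 0.295) and -0.40 with normexp. Its partner Tsc1 read 1.65, 1.93 and 1.86 in WT and 2.20, 2.08 and 2.28 in KO, at 0.37 ± 0.14 (SE; limma adjusted p = 0.374). Rps6kb2, an S6 kinase, was at -0.49 ± 0.14 (SE; limma adjusted p = 0.335). In all 3 the groups did not overlap. Of the 30 probes of this list with a value on all arrays, 9 had each KO array above each WT array and 4 (13.3%) had the opposite. Over all such probes the shares were 8.47% and 11.3%.

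Markers of the gland and of other cells were read beside these values. The summed signal of the 8 anterior pituitary markers, in multiples of the 75th percentile, was 3424, 2030 and 2895 on the WT arrays and 2435, 2377 and 2192 on the KO arrays. WT replicates 1 and 3 were highest there, as they were for the ribosomal proteins. The sum weighs the brightest hormone genes most, and 4 of the 8 markers had a log2 fold change below 0. Pou1f1 had another order, with WT replicates 1 and 3 lowest (1.17 and 1.11) and a log2 fold change of 0.16 ± 0.13 (SE). Folliculostellate and stem cell genes, 5 of 5 well above background on all arrays, summed to 53.05, 32.65 and 49.5 in WT and 37.9, 35.1 and 32.6 in KO. WT replicates 1 and 3 were again highest in this sum, and WT replicate 2 lay below KO replicate 2. The sum follows its brightest gene, Fxyd1, which read 5.55, 4.68 and 5.32 in WT and 4.96, 4.88 and 4.69 in KO. Not all of these genes shared that order: S100b was lowest on WT replicate 1 (-1.18). Aldh1a1 was lower on WT replicate 1 (1.98) than on WT replicate 2 (2.18). Cell division genes, of which 6 of 10 were well above background on all arrays and Cenpf and Aurkb on none, summed to 3.31 to 12.6 in WT and 1.25 to 1.95 in KO, with the highest value on WT replicate 3. Neutrophil genes, 3 of 6 well above background on all arrays, summed to 2.11 to 15.9 in WT and 1.36 to 1.95 in KO, again highest on WT replicate 3. Without WT replicate 3 the subunit medians relative to all probes were -0.10 (large) and -0.20 (small). The part of these cells in the ribosomal protein values was not tested.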

How the data were processed

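Pituitary RNA of 6 mice was labelled with Cy3, per the labels' protocols, and read on Agilent arrays of 1 colour. In the deposited spot files the intensity is gProcessedSignal, written by Agilent Feature Extraction 11.0.1.1 on a design of build mm9, per the file headers. The authors' value table holds deposited log2 values of 29154 spots; each column correlated at 0.997 or more across spots with the log2 median signal of its array, the column medians were 8.25 to 8.26, and how it was normalized is not stated in those sources. The submitters' processing notes name limma, with no version.

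Control and outlier spots were left out, spots of a probe were averaged as log2, and each array's 75th percentile (158 to 292 intensity units) was subtracted. A probe was tested where at least 3 of 6 arrays had it well above background, singly, with limma 3.58.1 under R 4.3.3 (two-sided moderated test by lmFit and eBayes, Benjamini-Hochberg over 36739 probes, calls at an adjusted p under 0.05). A sample without a value was dropped from that probe's fit. Symbols came from RefSeq tables, through which 27656 of the 55681 probes matched 20972 symbols. Named are the 6 probes of each subunit with the smallest p, the 3 with the highest fold change, genes whose probes differ by over 0.3 or in sign, dim probes (these with values per array), and up to 4 genes with the smallest p of each pathway list, the latter partly by fold change alone. Members, lists and tests were chosen with earlier results of these data known. Replicate numbers did not pair the samples. The fit was tested on simulated data, and 21 alternatives were run.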

Additional observations from a re-analysis of the deposited data

How the results depend on the processing

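In all alternatives with a test, 0 ribosomal protein probes were called, and Kdm4a stayed below 0 (-0.66 to -0.44). The gap between large and small subunit was 0.05 in slide row 2 alone. Relative to all probes, the large subunit median was -0.01 with quantile normalization, 0.01 with cyclic loess, -0.01 in the authors' value table, -0.33 in slide row 1 alone and 0.14 in slide row 2 alone, a comparison added after the data were seen. The small subunit median was -0.08, -0.07, -0.09, -0.47 and 0.08 in the same order. Leaving out 1 array gave -0.27 to -0.10 (large) and -0.40 to -0.20 (small).

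The 19 probes at an unadjusted p under 0.05 became 31 with normexp (30 lower and 1 higher), 0 with median centring, 6 with quantile normalization and 7 with cyclic loess. They became 12 with no filter on dim probes, 9 with the brightest probe of each gene (which fits fewer probes) and 38 with a variance trend and robust fitting. There were 56 in slide row 1 alone and 1 to 64 with 1 array left out, each without the share of all probes in that setting. With the replicate number as a block there were 12, and 0 were called; same-numbered WT and KO arrays correlated in their deviations at 0.139, -0.186 and -0.109, so they were not taken as pairs. Both replicates 2 lie in slide row 2 and all others in slide row 1. Median centring moved the median of all probes to 0.10 and the lack of a filter moved it to -0.16. The cause of these moves was not tested.

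With quantile normalization 66 of the 116 probes were below 0, with cyclic loess 72. Rpl7a (A_55_P2001347, without values in slide row 2) went from -0.46 to 0.01 in the authors' value table. Among the probes named above, Rpl17 (A_55_P2011674) was at 0.04 with normexp, 0.15 with median centring, 0.25 with quantile normalization, 0.22 with cyclic loess, 0.21 in the authors' value table, and -0.05 to 0.05 with 1 array left out. Rps27 (A_55_P2155438) was at 0.01, 0.12, 0.14, 0.20 and 0.06 in the same order, at 0.00 with the replicate block, and at -0.28 to 0.20 with 1 array left out. Rpl23 (A_51_P108190) ran from -0.06 to 0.08 with 1 array left out, and its other probe (A_55_P2029344) was at 0.06, 0.03 and 0.03 with quantile normalization, cyclic loess and the authors' values. Rpl13a (A_55_P2058953) was at 0.09, 0.05 and 0.07 in that order. Rps3 (A_55_P2038237) was at 0.05 with median centring and from -0.23 to 0.01 with 1 array left out, Rps15a (A_52_P491433) at 0.15 with quantile normalization, and Taf1a at -0.04 with normexp.

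No spot was saturated, so leaving out saturated probes could not be run as a different setting. Signal over background limits 1 ribosomal protein probe, that of Rps15a.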
